A study of Homo sapiens with 30 samples.

Results

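The effects of 2 missense-correcting tRNAs (mc-tRNAs) on the messenger RNA of HEK293, a cell line derived from human embryonic kidney, were set against each other. Libraries were chosen by their labels alone: 12 of the series' 30, in 4 groups of 3. In the Cys mc-tRNA group, cells carried the EGFP(R96C)-mCherry mistranslation reporter and the mc-tRNA Arg-tRNA_Cys(GCA). Its control group carried EGFP(R96C)-mCherry with no mc-tRNA. In the Trp mc-tRNA group, cells carried EGFP(R96W)-mCherry and Arg-tRNA_Trp(CCA), and its control group carried EGFP(R96W)-mCherry with no mc-tRNA. All 4 groups shared the wt line, transient transfection of a plasmid with Lipofectamine 3000, sorting of mCherry+ cells 48 h later and selection of polyA RNA. Reporter and mc-tRNA sat on 1 plasmid, so reporter-positive cells are also those that received the mc-tRNA gene, and the amount of each mc-tRNA was not analysed here. Per the labels' protocols, the 3 libraries of a group are independent replicates.

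An mc-tRNA pairs with a missense codon through its anticodon but carries the residue that the mutation removed, here arginine, and so can restore the protein. The same tRNA can read that codon in other messages, and proteins with unintended residues can misfold. Cells answer misfolded proteins with separate programmes: HSF1 drives cytosolic chaperones, the sensors ATF6, IRE1 and PERK drive the unfolded protein response of the endoplasmic reticulum (ER), and phosphorylation of eIF2alpha drives the integrated stress response through the transcription factor ATF4.

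The Cys effect is the log2 ratio of the Cys mc-tRNA group to EGFP(R96C), and the Trp effect is that of the Trp mc-tRNA group to EGFP(R96W). Their difference, the Cys effect minus the Trp effect, is the value tested throughout. A gene is called where its adjusted p (edgeR's quasi-likelihood test, Benjamini-Hochberg adjustment over 22321 genes) is under 0.05. Values after ± are standard errors for log2 values and standard deviations of 3 libraries for levels. Levels are in CPM, counts scaled by the library total and its TMM factor, which is estimated from the bulk of genes. Each mc-tRNA was tested with its own reporter only, so in the difference the tRNA and the reporter it came with cannot be told apart. In RNA from pooled cells, a change in the share of responding cells and a change per cell cannot be told apart either.

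The 12 libraries held 39961504 to 55206030 gene counts. TMM factors were 0.714 to 0.730 in the Cys mc-tRNA libraries and 1.04 to 1.08 in EGFP(R96C), against 0.924 to 1.005 in the Trp mc-tRNA libraries and 1.04 to 1.05 in EGFP(R96W). Cytosolic chaperones, 49 genes in 3 lists, took 10.18% to 10.49% of all counts in the Cys mc-tRNA libraries and 1.312% to 1.375% in EGFP(R96C), with 2.645% to 2.979% in the Trp mc-tRNA libraries and 1.407% to 1.563% in EGFP(R96W). With library totals in place of TMM factors, the median difference of all genes moved to -0.42. Differences are therefore read relative to the bulk of genes, and the direction of small ones depends on this scaling. Of the genes called in the difference, 54.3% were higher, against 21.8% with library totals. For the Cys effect these shares were 49.8% and 20.2%, and for the Trp effect 48.8% and 31.4%. A second check, GC offsets, corrects each library for the GC content of transcripts. All 9 HEK293 markers were detected. Of 14 markers of stromal, blood and keratinocyte cells, CD3E, HBB and KRT1 had 0 counts in all 12 libraries. Summed over the 14, they reached 94.2 to 99.8 CPM in the Cys mc-tRNA libraries and 34.6 to 40.1 CPM in EGFP(R96C), with 42.2 to 47.1 CPM in the Trp mc-tRNA libraries and 29.99 to 32.52 CPM in EGFP(R96W). Most of that came from COL1A1 and KRT10. Their part in the results was not tested.

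The Cys effect was the wider of the 2. It was called for 13550 genes, 60.7% of those tested, and the Trp effect for 9480, or 42.5%. The difference itself was called for 9756 genes, or 43.7%, with 5297 higher and 4459 lower. At least 2-fold differences were found for 1893 genes in the higher direction, or 8.48%, and for 1240 in the lower, or 5.56%. Calls varied with level: of genes with a mean under 1 CPM, 6.75% were called higher and 7.61% lower. At 100 CPM or more these shares were 47.6% and 19.8%. The shares of all genes given beside the lists below do not allow for level. Both effects were called in the same direction for 5853 genes, which is 43.2% of the Cys calls and 61.7% of the Trp calls. Of these, 2504 moved further with Cys, 245 moved further with Trp, and for 3104 the difference was not called. A further 4276 genes were called with Cys and in the difference but not with Trp, against 1204 for the reverse. In 1296 genes the effects ran in opposite directions. Across the genes tested the Pearson correlation of the effects was 0.461, a description over genes that share libraries and depth.

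**Figure D1:**
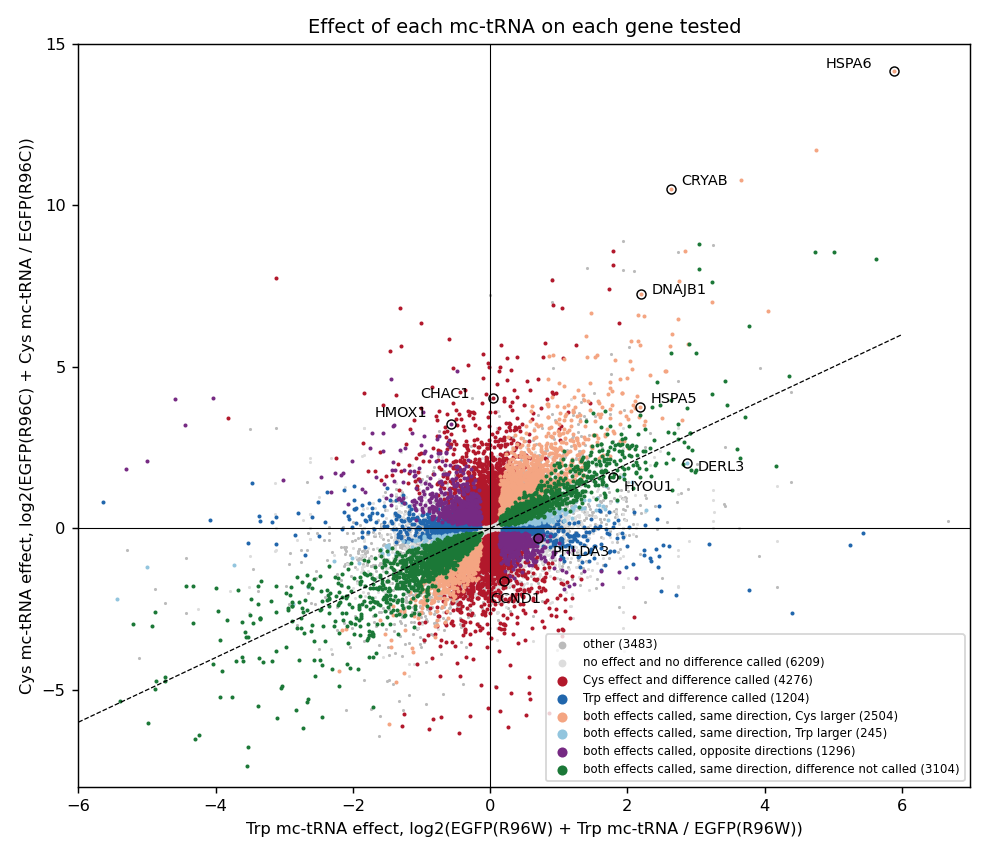
Cys mc-tRNA effect (vertical axis, log2) against Trp mc-tRNA effect (horizontal axis, log2), 1 point per gene, coloured by which effects and differences were called, with the number of genes in each class in the legend; the dashed line marks equal effects, and 4 genes lie outside the axes. The heat shock genes HSPA6, CRYAB and DNAJB1 lie far above the line, CHAC1 lies on the vertical axis with a Trp effect near 0, and DERL3 lies to the right of the line.

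Of 29 gene lists, the cytosolic HSP70 and HSP110 genes had the largest median difference, 2.34, beside -0.003 for all genes. Of 10 tested, 8 were higher in the difference and 0 lower, where 23.7% and 20% of all genes were. HSPA6, a strictly inducible HSP70, had 9017, 8302 and 8685 CPM in the Cys mc-tRNA libraries, against 0.381, 0.536 and 0.487 CPM in the EGFP(R96C) libraries. It had 122, 121 and 56.6 CPM in the Trp mc-tRNA libraries, against 1.56, 2.36 and 1.05 CPM in the EGFP(R96W) libraries. Both mc-tRNA groups lay wholly above their controls, and every Cys mc-tRNA library lay above every Trp mc-tRNA library. HSPA6 rose by 14.16 ± 0.37 with Cys and by 5.89 ± 0.28 with Trp, a difference of 8.27 ± 0.51 (edgeR adjusted p = 2.12e-11). Trp mc-tRNA replicate 3 held less than the other 2 for HSPA6, DNAJB1 and CRYAB. Without it the difference in HSPA6 was 7.98.

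DNAJB1, the HSP40 co-chaperone that feeds clients to HSP70, had 19741, 19492 and 19538 CPM in the Cys mc-tRNA libraries, against 128, 131.5 and 122 CPM in the EGFP(R96C) libraries. It had 744, 754 and 545 CPM in the Trp mc-tRNA libraries, against 160.3, 143.5 and 141.4 CPM in the EGFP(R96W) libraries. None of the 4 groups overlapped, and the Trp mc-tRNA libraries sat between the Cys mc-tRNA libraries and both controls. The difference was 5.07 ± 0.12 (edgeR adjusted p = 9.06e-28). CRYAB, a small heat shock protein of the lens and muscle, had 130, 127 and 144.8 CPM in the Cys mc-tRNA libraries, against 0.119, 0.112 and 0.0504 CPM in the EGFP(R96C) libraries, which for EGFP(R96C) is 13 counts over 3 libraries, so that its fitted difference of 7.88 ± 0.60 depends on the handling of low counts. In the Trp mc-tRNA group it reached 4.55 ± 1.31 CPM, against 0.74 ± 0.403 CPM in EGFP(R96W).

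HSPH1, an HSP110 that acts as nucleotide exchange factor for HSP70, rose by 5.81 with Cys and by 2.16 with Trp (difference 3.65 ± 0.12). HSPA1A and HSPA1B, the main inducible HSP70 genes, had differences of 3.79 ± 0.28 and 3.03 ± 0.25. Their sequences are nearly identical, as are parts of HSPA6 and HSPA7, and how their reads were shared out is uncertain. HSPA8, the constitutive HSP70, reached 7605 ± 85.2 CPM with the Cys mc-tRNA and 1349 ± 68.7 CPM in EGFP(R96C), against 2724 ± 427 CPM with the Trp mc-tRNA and 1437 ± 132.8 CPM in EGFP(R96W). HSPA2 and HSPA14 had differences of 0.29 ± 0.22 and -0.05 ± 0.10 and were not called, though that of HSPA14 was -0.46 and called with library totals.

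**Figure D2:**
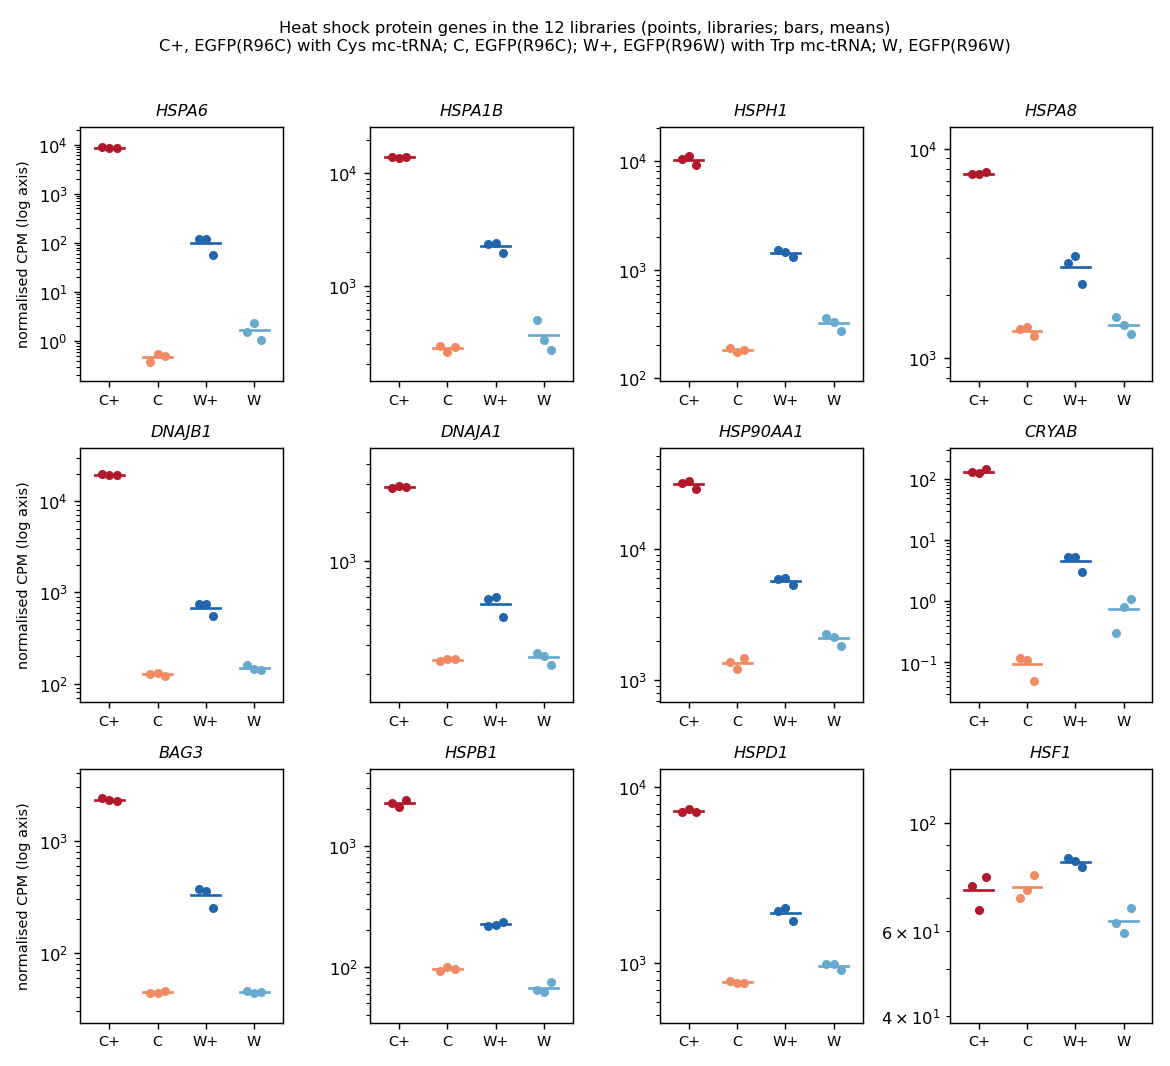
Levels of 11 chaperone genes and of their regulator HSF1 (vertical axis, normalised CPM on a log scale) in the 12 libraries, 1 point per library and a bar at each group mean. For the 11 chaperone genes the Cys mc-tRNA libraries lie highest and the Trp mc-tRNA libraries next, while the HSF1 mean is highest with the Trp mc-tRNA. The HSF1 difference of -0.43 was 0.02 with GC offsets and -0.84 with library totals.

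Of 12 HSP40 co-chaperones tested, 10 were higher in the difference and 1 lower, where 23.7% and 20% of all genes were. Their median was 0.87 beside -0.003 for all genes. With library totals 7 and 3 were higher and lower. DNAJA1, DNAJB4 and DNAJB6 had differences of 2.45 ± 0.11, 2.41 ± 0.15 and 1.90 ± 0.08. DNAJC5, a synaptic vesicle co-chaperone, fell with Cys (-0.34 ± 0.07) and rose with Trp (0.37 ± 0.07). Of 26 HSP90, small HSP, BAG and chaperonin genes, 20 were higher and 4 lower, against the same shares of all genes. HSP90AA1, the inducible cytosolic HSP90, had 31639, 32603 and 28236 CPM in the Cys mc-tRNA libraries, against 1388, 1214 and 1479.7 CPM in the EGFP(R96C) libraries. It had 5842, 6024 and 5274 CPM in the Trp mc-tRNA libraries, against 2265, 2152 and 1819.9 CPM in the EGFP(R96W) libraries. The 3 Cys mc-tRNA libraries stood apart from the other 9, and the difference was 3.04 ± 0.11. BAG3, which links HSP70 clients to autophagy, rose by 5.71 and 2.88 with Cys and Trp, and HSPB1, a small heat shock protein, by 4.55 and 1.75. All 7 chaperonin subunits listed beside TCP1, which fold actin and tubulin, were higher, between 0.27 for CCT7, which was -0.14 and not called with library totals, and 1.26 for CCT3. The lower members were BAG5 (-0.27 ± 0.08), HSPBP1 (-0.46 ± 0.12, but -0.02 with GC offsets), BAG1 (-0.55 ± 0.14) and UNC45A (-0.91 ± 0.09). BAG1 rose with Trp by 0.69 ± 0.10, and its Cys effect of 0.14 ± 0.10 was not called, though it was -0.40 and called with library totals.

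HSF1, the factor that switches on these genes, had a Cys effect of -0.02 ± 0.07, not called, and rose with Trp by 0.41 ± 0.07. The difference of -0.43 ± 0.09 was called, but was 0.02 and not called with GC offsets, where the Cys effect was 0.32 and called. With library totals the Cys effect of HSF1 was -0.57 and its difference -0.84, both called. HSF2, a related factor, and HSBP1, an HSF1 binding protein, had differences of 0.29 ± 0.09 and 0.44 ± 0.08, and that of HSF2 was -0.12 with GC offsets and -0.13 with library totals, neither called. With library totals HSBP1 had 0.03 and was not called. The mitochondrial chaperonin pair HSPD1 and HSPE1 and the mitochondrial HSP70 HSPA9 had differences of 2.24 ± 0.08, 1.48 ± 0.18 and 1.43 ± 0.08. In that list of 15 chaperones and proteases of mitochondria, 6 were higher and 4 lower, where 23.7% and 20% of all genes were. Its median of 0.12 fell to -0.30 with library totals. The protease LONP1 rose with Cys by 0.87 ± 0.07 and was not called with Trp (-0.09 ± 0.07). Its Trp effect was -0.17 with GC offsets and -0.21 with library totals, both called.

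Promoters of 2 of the chaperone genes that held a heat shock element, both described above with large differences, are shown as the 250 bases before the transcription start (RefSeq, GRCh38.p14), 5′ to 3′ on the strand of the gene, with the element in capitals. HSPA6 is at chr1:161524290-161524539 on the plus strand and HSP90AA1, at the second of its 2 listed starts, at chr14:102087045-102087294 on the minus strand.
HSPA6: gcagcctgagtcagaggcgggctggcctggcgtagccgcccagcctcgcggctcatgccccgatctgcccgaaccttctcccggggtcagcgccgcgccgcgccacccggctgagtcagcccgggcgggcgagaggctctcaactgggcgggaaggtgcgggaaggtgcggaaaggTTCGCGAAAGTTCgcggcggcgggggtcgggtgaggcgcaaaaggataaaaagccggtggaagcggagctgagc
HSP90AA1: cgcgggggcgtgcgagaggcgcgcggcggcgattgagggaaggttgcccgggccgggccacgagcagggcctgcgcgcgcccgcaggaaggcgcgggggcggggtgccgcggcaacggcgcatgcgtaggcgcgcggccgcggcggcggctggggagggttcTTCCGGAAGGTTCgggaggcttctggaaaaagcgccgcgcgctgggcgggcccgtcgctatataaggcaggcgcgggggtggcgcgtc

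The element searched was 3 alternating units of GAA and TTC, beginning with either and each 2 free bases apart, on both strands. It lay 74 to 62 bases before the start in HSPA6 and 88 to 76 bases before it in HSP90AA1. Of 22321 genes tested, 13376 had a window in the RefSeq table, and 0.478% of these held the element in the 250 bases. Among the cytosolic chaperones it was found in 6 of 44 with a window, or 13.6%, namely HSPA6, HSPA8, HSP90AA1, HSP90AB1, DNAJB6 and CHORDC1. Of genes at least 2-fold higher in the difference, 18 of 1312 with a window held it, or 1.37%, and of those at least 2-fold lower 1 of 544, or 0.184%. The higher genes had 1.53 windows each on average and the lower 1.28, which was not allowed for. A match is a description of letters, and its absence from these windows, as in HSPA1B and DNAJB1, says nothing about a factor.

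The ER unfolded protein response was raised by both mc-tRNAs, and its members split in the difference. With Cys 30 of 32 tested members rose, where 30.2% of all genes did, and with Trp 28 rose, where 20.7% did. Medians were 1.47 and 1.19, against -0.04 and -0.03 for all genes. In the difference 21 were higher and 6 lower, where 23.7% and 20% of all genes were, with a median of 0.45. With GC offsets the counts were 17 and 5, and with library totals 12 and 11. HSPA5, the main ER chaperone (BiP), had 6767, 7108 and 7483 CPM in the Cys mc-tRNA libraries, against 546, 538 and 488 CPM in the EGFP(R96C) libraries. It had 3307, 3516 and 2666 CPM in the Trp mc-tRNA libraries, against 679.9, 691 and 727 CPM in the EGFP(R96W) libraries. Both mc-tRNA groups lay above both controls without overlap, and the Cys mc-tRNA group lay above the Trp mc-tRNA group. The difference was 1.59 ± 0.10. HERPUD1, which assists ER-associated degradation, rose by 3.72 with Cys and 2.11 with Trp, the co-chaperone DNAJB9 by 3.47 and 2.16, and the transcription factor XBP1 by 2.90 and 1.00. The counts cover all forms of XBP1 mRNA, so the spliced form was not measured apart.

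Another set of ER genes rose at least as far with Trp. HYOU1, an ER HSP110, had 772, 716 and 748 CPM in the Cys mc-tRNA libraries, against 252, 243 and 239 CPM in the EGFP(R96C) libraries. It had 926, 848 and 648 CPM in the Trp mc-tRNA libraries, against 229, 226 and 248 CPM in the EGFP(R96W) libraries. The mc-tRNA groups overlapped each other and neither overlapped its control. The effects were 1.61 ± 0.08 and 1.78 ± 0.08, and the difference of -0.18 ± 0.12 was not called (edgeR adjusted p = 0.226). It was 0.03 with GC offsets, not called, but -0.59 with library totals and -0.31 without Trp mc-tRNA replicate 3, both called. For SYVN1, an E3 ligase of ER-associated degradation, the difference was -0.02 ± 0.09, which was not called. It was 0.21 with GC offsets and -0.44 with library totals, both called. DERL3, a channel component of ER-associated degradation, had 33.3, 32.6 and 37.9 CPM in the Cys mc-tRNA libraries, against 8.52, 9.03 and 8.23 CPM in the EGFP(R96C) libraries. It had 83.5, 71.3 and 62.2 CPM in the Trp mc-tRNA libraries, against 9.18, 9.501 and 11.1 CPM in the EGFP(R96W) libraries. The 3 Trp mc-tRNA libraries were the highest of the 12, the 3 Cys mc-tRNA libraries came next, and the difference was -0.85 ± 0.14 (edgeR adjusted p = 5.77e-06). CRELD2, an ER protein induced by ATF6, had a Cys effect of 0.63 ± 0.07 and a Trp effect of 1.37 ± 0.07, and with library totals its Cys effect was 0.09 and not called. The secreted survival factor MANF, the chaperone partner SDF2L1 and the disulfide isomerase PDIA4 also rose further with Trp, with differences of -0.36 ± 0.12, -0.64 ± 0.12 and -0.32 ± 0.09. With GC offsets those of SDF2L1 and PDIA4 were -0.16 and -0.17 and were not called, and that of MANF was -0.29 and not called without Trp mc-tRNA replicate 1. WFS1, an ER calcium regulator, rose with Trp by 0.77 ± 0.08, and its Cys effect of -0.15 ± 0.08 was not called, though it was -0.69 and called with library totals.

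Stretches of 250 bases before the start are shown for 4 ER genes that stood on different sides of the difference, with the ER stress element in capitals. HSPA5 (chr9:125241344-125241593, minus strand) rose further with Cys, CRELD2 (chr22:49918384-49918633, plus strand) and SDF2L1 (chr22:21642052-21642301, plus strand) rose further with Trp, and for HYOU1 (chr11:119057206-119057455, minus strand) the difference was not called.
HSPA5: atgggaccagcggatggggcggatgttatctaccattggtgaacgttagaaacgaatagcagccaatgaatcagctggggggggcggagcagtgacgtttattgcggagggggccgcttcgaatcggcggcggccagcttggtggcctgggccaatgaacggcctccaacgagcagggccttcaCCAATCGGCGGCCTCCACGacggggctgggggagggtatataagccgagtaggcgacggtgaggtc
CRELD2: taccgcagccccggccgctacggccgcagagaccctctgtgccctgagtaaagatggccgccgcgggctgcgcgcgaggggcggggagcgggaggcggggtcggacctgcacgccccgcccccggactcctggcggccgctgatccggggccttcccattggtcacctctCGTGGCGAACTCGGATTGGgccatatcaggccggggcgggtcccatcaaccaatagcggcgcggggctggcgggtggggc
SDF2L1: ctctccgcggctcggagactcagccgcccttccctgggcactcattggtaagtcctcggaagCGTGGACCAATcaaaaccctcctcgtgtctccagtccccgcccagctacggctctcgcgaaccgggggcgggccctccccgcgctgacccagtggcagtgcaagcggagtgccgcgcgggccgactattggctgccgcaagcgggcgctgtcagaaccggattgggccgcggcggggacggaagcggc
HYOU1: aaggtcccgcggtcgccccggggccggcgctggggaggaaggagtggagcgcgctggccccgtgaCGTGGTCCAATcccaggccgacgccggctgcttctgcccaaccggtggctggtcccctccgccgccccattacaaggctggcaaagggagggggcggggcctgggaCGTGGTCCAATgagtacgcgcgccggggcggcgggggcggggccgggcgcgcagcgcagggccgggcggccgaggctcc

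In HSPA5 and CRELD2 the capitals mark the ER stress element, CCAAT and CCACG with 9 free bases between them, found 66 to 48 and 80 to 62 bases before the start. In SDF2L1 and HYOU1 they mark the ER stress element II, ATTGG and CCACG with 1 free base between them, once and at 2 places, on either strand. The first element was found in 8 of 29 ER genes with a window, or 27.6%, against 0.127% of all genes, and the second in 3, or 10.3%, against 0.112%. The 8 genes were CALR, CANX, CRELD2, ERO1B, HSP90B1, HSPA5, PDIA6 and XBP1. Of these, 7 were higher in the difference and CRELD2 was lower, so that the element was found on both sides. The differences of CALR and PDIA6 were -0.12 and -0.04 with library totals and that of ERO1B was -0.02 with GC offsets, none of them called.

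Nearly all members of the integrated stress response had a higher Cys than Trp effect. Of 35 members, 34 rose and 1 fell with Cys, with a median of 1.84. With Trp 19 rose, 1 fell and 15 were not called, with a median of 0.22. The list took 0.7065%, 0.7892% and 0.8944% of counts in the EGFP(R96W) libraries, against 0.8497%, 0.8528% and 0.8168% with the Trp mc-tRNA. The Trp effect on this list was thus read against a control whose libraries spanned the Trp mc-tRNA range. The difference was higher for 32 and lower for 1, where it was for 23.7% and 20% of all genes. Its median was 1.58 beside -0.003 for all genes. These counts were 34 and 1 with GC offsets and 31 and 3 with library totals. The controls also differed in this list: 18 members were lower in EGFP(R96C) than in EGFP(R96W) and 3 higher, where 19.1% and 15.7% of all genes were, with a median of -0.29 that enters the difference.

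CHAC1, a glutathione-degrading enzyme induced by ATF4, had 443, 402 and 386 CPM in the Cys mc-tRNA libraries, against 28.3, 23.4 and 23.5 CPM in the EGFP(R96C) libraries. It had 48.9, 45.5 and 37.9 CPM in the Trp mc-tRNA libraries, against 30.1, 40.8 and 58.4 CPM in the EGFP(R96W) libraries. The Cys mc-tRNA libraries stood apart from all others, while the Trp mc-tRNA and EGFP(R96W) libraries overlapped. CHAC1 rose by 4.04 ± 0.24 with Cys, its Trp effect was 0.04 ± 0.22, and the difference was 3.9997 ± 0.31 (edgeR adjusted p = 8.37e-10). ASNS, asparagine synthetase, had 1504, 1554 and 1622 CPM in the Cys mc-tRNA libraries, against 461, 455 and 395 CPM in the EGFP(R96C) libraries. It had 587, 655 and 606 CPM in the Trp mc-tRNA libraries, against 593, 717 and 830.1 CPM in the EGFP(R96W) libraries. The Trp mc-tRNA and EGFP(R96W) libraries again overlapped, and both lay above EGFP(R96C). The difference was 2.05 ± 0.18. Between the controls, EGFP(R96C) minus EGFP(R96W), it was -0.71 ± 0.13, and the Cys mc-tRNA group minus the Trp mc-tRNA group was 1.34 ± 0.13.

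The serine and one-carbon enzymes PSAT1, PSPH, MTHFD2 and SHMT2 rose with Cys, were not called with Trp and had differences of 1.85 ± 0.11, 1.25 ± 0.12, 1.81 ± 0.15 and 0.66 ± 0.14. With library totals the difference of SHMT2 was 0.25 and its Cys effect 0.13, neither called. PHGDH, the first enzyme of serine synthesis, rose by 1.26 ± 0.09 with Cys and fell with Trp (-0.42 ± 0.09). SLC7A11, the cystine importer, had 299.8 CPM with the Cys mc-tRNA and 50.2 CPM in EGFP(R96C), against 154.3 CPM with the Trp mc-tRNA and 154.8 CPM in EGFP(R96W), so that the controls differed by -1.63 ± 0.18. DDIT4, an inhibitor of the mTORC1 pathway, had a difference of 2.14 ± 0.15, with controls that differed by 0.07 ± 0.10.

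Other members rose with both, and further with Cys. ATF4 itself rose by 1.19 ± 0.06 and 0.27 ± 0.06, and DDIT3, which codes for the pro-apoptotic factor CHOP, by 3.48 ± 0.15 and 1.10 ± 0.14. TRIB3, a pseudokinase target of both factors, rose by 3.83 ± 0.23 and 1.13 ± 0.21, and ATF3, a stress transcription factor, by 3.59 ± 0.09 and 1.02 ± 0.08. PPP1R15A, the stress-induced subunit that directs dephosphorylation of eIF2alpha, rose by 3.70 ± 0.10 and 1.74 ± 0.09. GDF15, a stress-induced cytokine, had 46.7 and 19.3 CPM in the Cys mc-tRNA and EGFP(R96C) libraries, and 10.9 and 8.16 CPM in the Trp mc-tRNA and EGFP(R96W) libraries, a difference of 0.86 ± 0.17, and its Trp effect of 0.42 ± 0.13 was 0.30 and not called with library totals. Of the eIF2alpha kinases, EIF2AK3 (PERK) had effects of 1.74 and 1.15, EIF2AK2 (PKR) rose with Cys by 1.19 ± 0.07 and was not called with Trp, and EIF2AK4 (GCN2) fell with Cys (-0.38 ± 0.06). The difference of EIF2AK3 was 0.59, but 0.17 and not called with library totals. The lone member lower in the difference was ALDH18A1, a proline synthesis enzyme. It had 171 CPM with the Cys mc-tRNA and 214 CPM in EGFP(R96C), against 246 CPM with the Trp mc-tRNA and 187 CPM in EGFP(R96W), a difference of -0.72 ± 0.09.

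**Figure D3:**
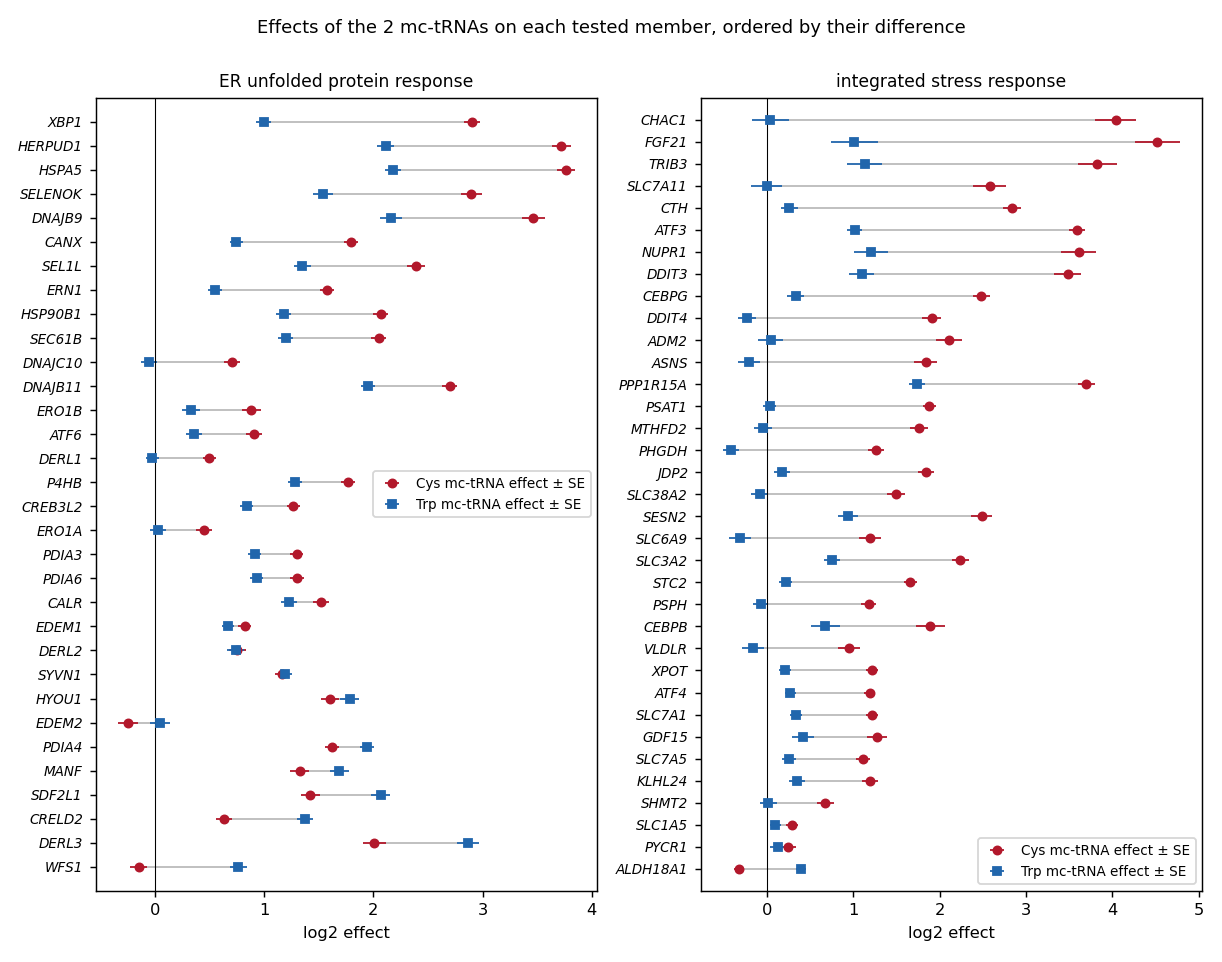
Cys mc-tRNA effect (circles) and Trp mc-tRNA effect (squares) with standard errors, log2, on the tested members of the ER unfolded protein response (32 genes) and the integrated stress response (35 genes), ordered by the difference. In the ER list both symbols lie mostly right of 0 and the order of the 2 turns round at the bottom, whereas in the integrated stress response list the squares cluster near 0 and the circles spread to 4.52 for FGF21.

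Promoters of CHAC1 (chr15:40953221-40953470, plus strand) and ASNS (chr7:97872409-97872658, minus strand, the first of 2 listed starts) are shown because both were called with Cys and not with Trp. With library totals the Trp effect of ASNS was -0.34 and called. Capitals mark TGATGNAA (N, any base), the C/EBP-ATF response element, on either strand.
CHAC1: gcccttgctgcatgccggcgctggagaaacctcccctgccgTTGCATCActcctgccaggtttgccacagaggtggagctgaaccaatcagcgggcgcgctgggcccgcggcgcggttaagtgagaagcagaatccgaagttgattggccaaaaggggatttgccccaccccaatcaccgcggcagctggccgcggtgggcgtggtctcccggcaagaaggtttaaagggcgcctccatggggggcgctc
ASNS: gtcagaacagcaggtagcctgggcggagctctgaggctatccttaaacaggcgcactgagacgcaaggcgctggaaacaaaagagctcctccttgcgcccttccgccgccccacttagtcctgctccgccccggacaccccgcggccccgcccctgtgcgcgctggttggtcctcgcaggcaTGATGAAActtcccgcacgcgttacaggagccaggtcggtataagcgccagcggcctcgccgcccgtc

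The element was found 209 to 202 bases before the start of CHAC1 and 68 to 61 bases before that of ASNS. It was present in 7 of 30 integrated stress response genes with a window, or 23.3%, against 2.52% of all genes. The 7 were ASNS, ATF3, CEBPG, CHAC1, FGF21, JDP2 and SLC1A5. Of these, ATF3, FGF21 and CEBPG were called with Trp too, at 1.02, 1.01 and 0.34, while ASNS, CHAC1 and JDP2 were not. The element was thus not confined to genes called with Cys alone. With library totals the Trp effect of CEBPG was 0.21 and not called. Among genes at least 2-fold higher in the difference 72 of 1312 with a window held it, or 5.49%, and among those at least 2-fold lower 7 of 544, or 1.29%. The higher genes had 1.53 windows each on average, the lower 1.28 and all genes 1.43. Neither this nor GC content was allowed for.

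Genes of translation followed in part. Of 24 cytosolic aminoacyl-tRNA synthetases and their partner proteins, which charge tRNAs, 17 were higher in the difference and 2 lower. Over all genes 23.7% were higher and 20% lower, and the median of the list was 0.60. With GC offsets the counts were 11 and 3, with a median of 0.17. TARS1, the threonyl enzyme, had 1615 ± 57.0 CPM with the Cys mc-tRNA and 360.2 ± 12.6 CPM in EGFP(R96C), against 533 ± 47.4 CPM with the Trp mc-tRNA and 431 ± 21.7 CPM in EGFP(R96W). GARS1 (glycyl), AARS1 (alanyl) and NARS1 (asparaginyl) had differences of 1.82 ± 0.09, 1.37 ± 0.11 and 1.35 ± 0.09. CARS1 and WARS1, the cysteinyl and tryptophanyl enzymes that charge the natural tRNAs for cysteine and tryptophan, had Cys effects of 1.45 ± 0.07 and 1.80 ± 0.09 and Trp effects of 0.17 ± 0.07 and 0.59 ± 0.08. RARS1, the arginyl enzyme, had effects of 0.98 ± 0.06 and 0.46 ± 0.06, and its difference of 0.52 ± 0.09 was 0.16 with GC offsets and 0.10 with library totals, neither called. VARS1 (valyl) and QARS1 (glutaminyl) fell with Cys (-0.98 ± 0.09 and -0.72 ± 0.07). QARS1 fell with Trp as well (-0.31 ± 0.07), and the Trp effect of VARS1 was 0.02 ± 0.09, not called.

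Initiation factors EIF1, EIF2S2 and EIF5 were higher in the difference, by 1.38 ± 0.10, 1.71 ± 0.08 and 1.37 ± 0.13, whereas the scaffold EIF4G1 fell with Cys (-0.44 ± 0.08) and rose with Trp (0.50 ± 0.08). In the ribosome quality control list, which handles stalled ribosomes, GTPBP2 (1.69 ± 0.10), PELO (0.84 ± 0.10) and the kinase MAP3K20 (0.85 ± 0.10) were higher, among 9 higher and 3 lower of 20, a balance that turned round to 6 and 8 with library totals. Enzymes that process and modify tRNA leaned lower: 28 of 62 were lower, where 20% of all genes were. The 16 that were higher lay near the 23.7% of all genes, and the median was -0.22. With library totals 11 and 43 were higher and lower. The methyltransferase partner WDR4, the dihydrouridine synthase DUS2, the 3′ processing nuclease ELAC2 and the pseudouridine synthase PUS1 fell with Cys, were not called with Trp and had differences of -1.13 ± 0.13, -1.01 ± 0.12, -0.96 ± 0.08 and -0.89 ± 0.11. With GC offsets the Trp effects of WDR4 and DUS2 were -0.21 and -0.24 and were called. With library totals those of WDR4, DUS2 and ELAC2 were -0.27, -0.31 and -0.16, all called. TYW3, of wybutosine synthesis, TRUB1, a pseudouridine synthase, and TSEN15, of tRNA splicing, were higher, by 1.37 ± 0.11, 1.27 ± 0.12 and 1.20 ± 0.10. Of 79 ribosomal protein genes 27 were higher and 2 lower, but with library totals 0 were higher and 20 lower, so their direction rests on the scaling.

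Of 21 genes for ubiquitin supply, autophagy receptors and aggregate handling, 15 were higher in the difference and 1 lower, against 9 and 5 with library totals. Over all genes 23.7% were higher and 20% lower. UBB, a polyubiquitin gene, had 8106, 7702 and 8842 CPM in the Cys mc-tRNA libraries, against 1020.1, 967 and 758 CPM in the EGFP(R96C) libraries. It had 1556, 1651 and 1267 CPM in the Trp mc-tRNA libraries, against 981, 961 and 1179.6 CPM in the EGFP(R96W) libraries. The Cys mc-tRNA libraries lay far above the rest, the Trp mc-tRNA libraries lay above both controls, and the difference was 2.65 ± 0.12. ZFAND2A, an arsenite- and heat-inducible proteasome-associated protein, had a difference of 3.37 ± 0.15, and the autophagy genes MAP1LC3B, SQSTM1 and TAX1BP1 had 1.57 ± 0.10, 1.17 ± 0.10 and 2.05 ± 0.14. VCP, the segregase that extracts ubiquitinated proteins, had effects of 0.38 ± 0.06 and 0.49 ± 0.06 and a difference of -0.11 ± 0.09 that was not called. With library totals its Cys effect was -0.17 and its difference -0.52, both called. Of 32 proteasome subunits 14 were higher and 1 lower (PSMC2 1.00 ± 0.09), against 6 and 15 with library totals.

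Many but not all stress signalling genes rose with each mc-tRNA. Of 12 MAP kinase phosphatase and GADD45 genes 9 rose with Cys, where 30.2% of all genes did, and 7 with Trp, where 20.7% did. Of 29 immediate early genes 20 rose and 2 fell with Cys, and 17 rose and 4 fell with Trp. In the difference of the first list 8 were higher and 2 lower, where 23.7% and 20% of all genes were, with a median of 1.08. GADD45G, a growth arrest gene, had 11.2, 9.74 and 10.2 CPM in the Cys mc-tRNA libraries, against 0.905, 0.804 and 0.856 CPM in the EGFP(R96C) libraries. It had 0.224, 0.521 and 0.706 CPM in the Trp mc-tRNA libraries, against 0.788, 0.36 and 0.663 CPM in the EGFP(R96W) libraries, and these last 2 groups overlapped. DUSP1, which inactivates stress kinases, rose by 3.78 ± 0.10 and 0.84 ± 0.10. Of the immediate early genes 14 were higher in the difference and 4 lower, against 10 and 7 with library totals, and between the controls 14 were higher in EGFP(R96C) and 4 lower. IER5, an HSF1-associated early gene, rose by 4.06 ± 0.08 with Cys and 0.90 ± 0.08 with Trp, JUN by 2.20 ± 0.10 and 0.56 ± 0.10, and FOS by 2.33 ± 0.27 with Cys, while its Trp effect of 0.01 ± 0.29 was not called. EGR1, a zinc finger transcription factor, fell with Trp (-0.44 ± 0.17), and its Cys effect of 0.33 ± 0.17 was not called. Its difference of 0.77 was 0.35 and not called with library totals. MYC, a growth-promoting transcription factor in the same list, fell with Cys (-0.88 ± 0.08) and less with Trp (-0.22 ± 0.07).

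The NF-kB and inflammatory list had 13 members higher and 2 lower of 22, against 9 and 5 with library totals. Over all genes 23.7% were higher and 20% lower. TNFAIP3, a feedback inhibitor of NF-kB, had 47.0, 46.1 and 39.3 CPM in the Cys mc-tRNA libraries, against 7.38, 8.11 and 8.16 CPM in the EGFP(R96C) libraries. It had 8.55, 7.82 and 6.74 CPM in the Trp mc-tRNA libraries, against 7.76, 7.94 and 8.21 CPM in the EGFP(R96W) libraries. The Cys mc-tRNA libraries alone stood above the others, whose ranges overlapped, and the difference was 2.53 ± 0.15 (edgeR adjusted p = 2.36e-16). RELB, a subunit of NF-kB, had a difference of 2.02 ± 0.14, NFKBIZ, a regulator, rose by 2.19 ± 0.10 with Cys and was not called with Trp (0.19 ± 0.09), and the chemokine genes CXCL2 and CXCL3 had differences of 3.02 ± 0.43 and 2.58 ± 0.33. RELA, the main activating subunit, fell with Cys (-0.18 ± 0.06) and rose with Trp (0.50 ± 0.06), but its Cys effect was 0.00 with GC offsets. Among interferon-stimulated genes 11 of 31 were higher and 1 lower, and their Trp median was -0.35. IFIT1, an antiviral RNA-binding protein, fell with both (-1.04 ± 0.15 and -1.15 ± 0.15), with a difference of 0.11 ± 0.21 that was not called. With library totals 5 and 5 were higher and lower, and the list's median difference of 0.39 became -0.03.

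Oxidative stress genes divided. HMOX1, haem oxygenase, had 347, 317 and 311 CPM in the Cys mc-tRNA libraries, against 38.0, 37.1 and 28.7 CPM in the EGFP(R96C) libraries. It had 32.7, 31.9 and 22.6 CPM in the Trp mc-tRNA libraries, against 44.2, 39.99 and 45.5 CPM in the EGFP(R96W) libraries. The Cys mc-tRNA libraries were above all others, and the Trp mc-tRNA libraries lay below EGFP(R96W) and overlapped EGFP(R96C). HMOX1 rose with Cys by 3.23 ± 0.17 and fell with Trp (-0.57 ± 0.16), a difference of 3.81 ± 0.23 (edgeR adjusted p = 4.88e-12). The ferritin light chain FTL and malic enzyme ME1 had differences of 1.34 ± 0.12 and 2.06 ± 0.10. NQO1, a standard target of NRF2, fell with both (-0.45 ± 0.17 and -0.40 ± 0.16), and its difference of -0.05 ± 0.23 was not called. Of 22 NRF2 targets 10 were higher and 4 lower, against 9 and 10 with library totals. Over all genes 23.7% were higher and 20% lower. Of 5 metallothionein and metal response genes 3 were lower and 1 higher, with a control median, EGFP(R96C) minus EGFP(R96W), of 0.82. MT2A had 3.21 ± 0.133 CPM with the Cys mc-tRNA and 9.35 ± 2.46 CPM in EGFP(R96C), against 4.23 ± 0.551 CPM with the Trp mc-tRNA and 5.27 ± 0.642 CPM in EGFP(R96W), and MT1X had a difference of -1.78 ± 0.31.

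Of 24 p53 targets 16 rose and 5 fell with Cys, and 11 rose and 2 fell with Trp. In the difference 6 were higher and 7 lower, where 23.7% and 20% of all genes were. With library totals 5 and 12 were higher and lower. SESN2, PMAIP1 (NOXA) and GADD45A were higher, by 1.55 ± 0.16, 1.48 ± 0.16 and 0.96 ± 0.11, while PHLDA3 fell with Cys (-0.31 ± 0.08, but -0.06 and not called with GC offsets) and rose with Trp (0.70 ± 0.08). BTG2 had a difference of -0.64 ± 0.13, with a Cys effect of 0.45 ± 0.09 that was -0.10 with library totals. CDKN1A, the p21 gene, had a difference of 0.12 ± 0.11 and was not called, but was 0.40 with GC offsets and -0.29 with library totals, both called. Splicing regulators were mixed: TRA2A (1.53 ± 0.09), TRA2B (1.37 ± 0.11) and the kinase CLK1 (1.43 ± 0.09) were higher, CLK2 was lower (-0.68 ± 0.08), and of 18 genes 11 were higher and 2 lower. With GC offsets these counts were 6 and 5, and with library totals 6 and 6.

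**Figure D4:**
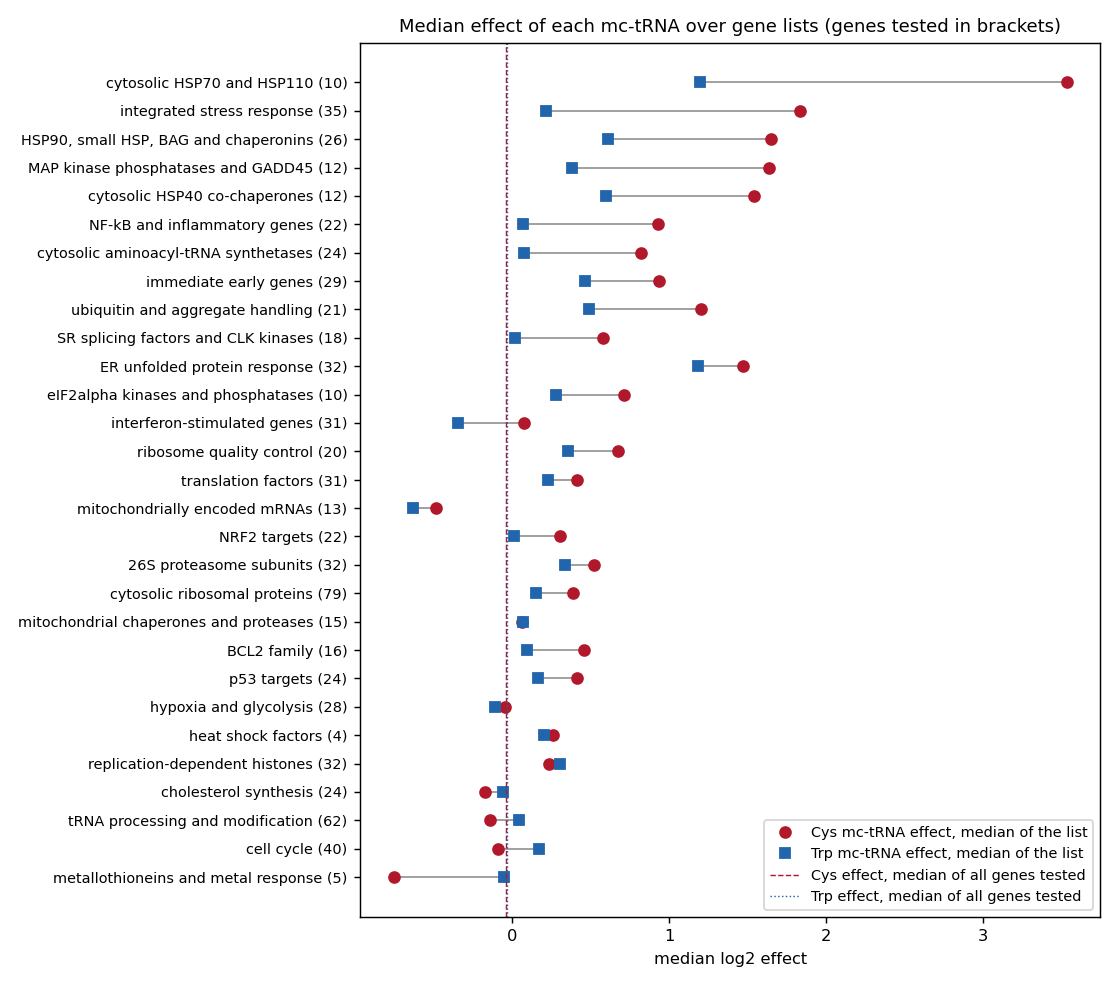
Median Cys mc-tRNA effect (circles) and median Trp mc-tRNA effect (squares), log2, over 29 gene lists with the number of genes tested in brackets, ordered by the median difference; the dashed and dotted lines are the medians of all genes tested. The largest gaps are those of the HSP70 list, the integrated stress response, the list of HSP90 and other chaperones and the MAP kinase phosphatases, with median differences between 2.34 and 1.08, the ER list has both medians above 1, and the cell cycle and metallothionein lists lie at the bottom with the order turned round. With library totals the median differences of lists near the middle, such as ribosomal proteins, proteasome subunits and NRF2 targets, turn negative.

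Genes of the cell cycle leaned lower. Of 40 tested 22 were lower and 5 higher, where 20% and 23.7% of all genes were, with a median of -0.31. With library totals 31 and 0 were lower and higher. CCND1, cyclin D1 of the G1 phase, had 5.47, 6.43 and 5.92 CPM in the Cys mc-tRNA libraries, against 17.6, 17.9 and 19.96 CPM in the EGFP(R96C) libraries. It had 15.9, 19.2 and 20.6 CPM in the Trp mc-tRNA libraries, against 17.9, 15.2 and 15.1 CPM in the EGFP(R96W) libraries. The Cys mc-tRNA libraries were the lowest of the 12 and the other groups overlapped, with a difference of -1.84 ± 0.14 (edgeR adjusted p = 3.1e-13). The mitotic genes BIRC5, AURKA and BUB1B fell with Cys and rose with Trp, with differences of -0.75 ± 0.08, -0.77 ± 0.10 and -0.82 ± 0.09, though with library totals the Trp effect of BUB1B was 0.07 and not called. CCNA2 (cyclin A) and KIF20A had differences of -0.73 ± 0.08 and -1.004 ± 0.11. CDC6, a replication licensing factor, was higher (0.59 ± 0.11, though 0.18 and not called with library totals). In cholesterol synthesis 10 of 24 were lower and 5 higher, against 17 and 3 with library totals, with SQLE at -0.93 ± 0.11. The mitochondrially encoded mRNAs fell with both: 10 of 13 with Cys, where 30.5% of all genes did, and 12 with Trp, where 21.7% did. In the difference 6 were higher and 0 lower, but 0 and 6 with library totals. Of replication-dependent histones, 4 of 32 were higher and 2 lower in the difference, in polyA RNA only, with H1-2 at 1.42 ± 0.15. Among hypoxia and glycolysis genes 7 of 28 were higher and 9 lower, VEGFA at 1.16 ± 0.15 and LDHA at -0.46 ± 0.09. With library totals the histone counts were 1 and 7 and those of the hypoxia list 4 and 20. Between the controls 21 histone genes were higher in EGFP(R96C) and 0 lower.

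Genes outside the lists were among the largest positive differences. ESRP1, an epithelial splicing regulator, reached 40.7 ± 3.96 CPM with the Cys mc-tRNA and 0.0956 ± 0.0863 CPM in EGFP(R96C), against 1.37 ± 0.161 CPM with the Trp mc-tRNA and 0.192 ± 0.072 CPM in EGFP(R96W). Its EGFP(R96C) level was near the 0.054 to 0.075 CPM that 3 counts make by library total, so the size of its Cys effect is uncertain. MAP2, a neuronal microtubule protein, reached 28.3 ± 3.97 CPM with the Cys mc-tRNA and 0.555 ± 0.177 CPM in EGFP(R96C), against 2.14 ± 0.136 CPM with the Trp mc-tRNA and 1.92 ± 0.225 CPM in EGFP(R96W). For 5 further genes at least 1 group lay at or near the limit that a count of 0 allows, 3 counts per library, so counts over the 3 libraries are given and no fold. The synaptic vesicle gene SYT4 had 771 counts in the Cys mc-tRNA libraries and 10 in EGFP(R96C), with 2 in the Trp mc-tRNA libraries and 6 in EGFP(R96W). The desmosomal cadherin gene DSC1 had 1663 counts in the Cys mc-tRNA libraries and 1 in EGFP(R96C), with 96 in the Trp mc-tRNA libraries and 8 in EGFP(R96W). HSPA7, the near copy of HSPA6, had 7516 counts in the Cys mc-tRNA libraries and 3 in EGFP(R96C), with 107 in the Trp mc-tRNA libraries and 4 in EGFP(R96W). In all 5 the Cys mc-tRNA libraries held most of the counts, as they did for SEZ6L, a seizure-related membrane protein, with 743 counts against 9 in EGFP(R96C), 14 with the Trp mc-tRNA and 8 in EGFP(R96W). MIR7-3HG, a miRNA host transcript, had 2562 counts in the Cys mc-tRNA libraries and 83 in EGFP(R96C), with 12 in the Trp mc-tRNA libraries and 37 in EGFP(R96W).

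The largest negative differences at 5 CPM or more were smaller. KCNC4, a voltage-gated potassium channel gene, had 5.20, 4.97 and 5.12 CPM in the Cys mc-tRNA libraries, against 21, 21.4 and 28.9 CPM in the EGFP(R96C) libraries. It had 26.4, 23.2 and 28.97 CPM in the Trp mc-tRNA libraries, against 27.5, 25.96 and 24.4 CPM in the EGFP(R96W) libraries. The Cys mc-tRNA libraries were the lowest of the 12, the other groups overlapped, and the difference was -2.24 ± 0.20 (edgeR adjusted p = 4.71e-10). MDGA1, HPS6, BAHCC1, NOG, FJX1 and UBAP1L had differences between -2.14 and -1.90, each with a Trp effect that was not called. KMT2D, a histone H3 lysine methyltransferase gene, fell with Cys (-1.54 ± 0.14) and rose with Trp (0.35 ± 0.14), a Trp effect of 0.33 with GC offsets and 0.23 with library totals, neither called. TMEM160 was listed too, but its Trp mc-tRNA libraries had 3.66, 3.89 and 16.7 CPM, against 3.86, 3.40 and 4.39 CPM in EGFP(R96W), so replicate 3 alone lay outside the control range. Its difference was -1.97 ± 0.56 with that library and -0.87 without it.

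Genes with opposite effects were ranked by the smaller of the 2. Among them ANKRD1, a stress-responsive muscle ankyrin repeat gene, had 34.3 ± 1.39 CPM in the Cys mc-tRNA group and 1.37 ± 0.0469 CPM in EGFP(R96C), against 4.16 ± 1.57 CPM in the Trp mc-tRNA group and 11.2 ± 1.90 CPM in EGFP(R96W). The sodium channel gene SCN9A had a Cys effect of 1.61 ± 0.15 and a Trp effect of -1.10 ± 0.16, and the secretory granule gene SCG3 of 3.61 ± 0.20 and -0.97 ± 0.25. In the other direction the developmental factor TBX2 had -0.83 ± 0.10 and 0.92 ± 0.10, the TGF-beta repressor SKI -0.92 ± 0.13 and 0.74 ± 0.12, and the ribosomal protein gene RPL36A -0.66 ± 0.09 and 0.68 ± 0.08. Called with Trp and in the difference but not with Cys were CCDC96 (1.81 ± 0.18), the centrosomal CETN2 (1.04 ± 0.07) and CTU1, a tRNA thiolation enzyme (1.04 ± 0.19), all higher with Trp, and the guidance genes SEMA3D (-1.30 ± 0.20) and SEMA3E (-1.04 ± 0.16) and the cell adhesion gene CNTNAP2 (-1.08 ± 0.09), all lower with Trp. The difference in SEMA3D was 0.35 with GC offsets and 0.59 with library totals, neither called. With GC offsets the Cys effects of CETN2 and SEMA3D were -0.27 and -0.87 and were called. With library totals the Cys effects of CCDC96, CETN2, CTU1, SEMA3D, SEMA3E and CNTNAP2 were negative and called. They lay between -0.39 for CCDC96 and -0.84 for CTU1, so the absence of a Cys call depends on the scaling.

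Genes raised by both with no difference called included FICD, which modifies BiP (Cys effect 1.56, Trp effect 1.59), FOXJ1, a ciliogenesis factor (Cys effect 2.73, Trp effect 2.39), PLPP5 (Cys effect 2.45, Trp effect 2.11) and SPATA2, which regulates cell death signalling (Cys effect 1.75, Trp effect 1.51). Their differences ran from -0.03 to 0.34, and the uncertainty of each bounds how far the effects may differ: that of FOXJ1 was 0.34 ± 0.41. The difference of FICD was -0.45 with library totals and that of SPATA2 was 0.34 with GC offsets, both called. Genes lowered by both included EVPL, a desmosome-linked plakin (Cys effect -3.44, Trp effect -3.94), the germline-biased factor TAF7L (Cys effect -2.11, Trp effect -2.25), the receptor gene GFRA3 (Cys effect -1.86, Trp effect -1.64) and the transcription factor POU2F2 (Cys effect -1.57, Trp effect -1.69).

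The 2 controls differed from each other, which enters the difference. EGFP(R96C) minus EGFP(R96W) was called for 7773 genes, 34.8% of those tested, with 15.7% higher and 19.1% lower. The Cys mc-tRNA group minus the Trp mc-tRNA group was called for 51.8%, with 27.0% higher and 24.8% lower. The difference between effects also varied with transcript GC content. In the fifth of 11650 protein-coding genes over 1 CPM with the lowest GC content, 30.2% to 40.8%, it was 0.52, and 65.2% were called higher. In the fifth with the highest, 58.3% to 74.5%, it was -0.38, and 51.5% were called lower. The control difference ran the other way, with medians of -0.35 and 0.22 in those bins, while the Cys effect had 0.47 and -0.31 and the Trp effect -0.07 and 0.06. Spearman's rho with GC content over these genes was -0.513 for the difference, -0.381 for the Cys effect, 0.114 for the Trp effect and 0.588 for the control difference. Part of the spread lies between libraries of 1 group: the slope per 10% of GC was -0.23 to -0.0779 in the Cys mc-tRNA libraries and 0.141 to 0.174 in EGFP(R96C), with -0.0265 to -0.00296 in the Trp mc-tRNA libraries and -0.114 to -0.00196 in EGFP(R96W). With GC offsets, a correction per library for transcript GC content chosen after seeing the data, 9273 genes were called in the difference, of which 7125 were called in the same direction in both fits and 101 in opposite directions. The part of GC content in the results was not tested.

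**Figure D5:**
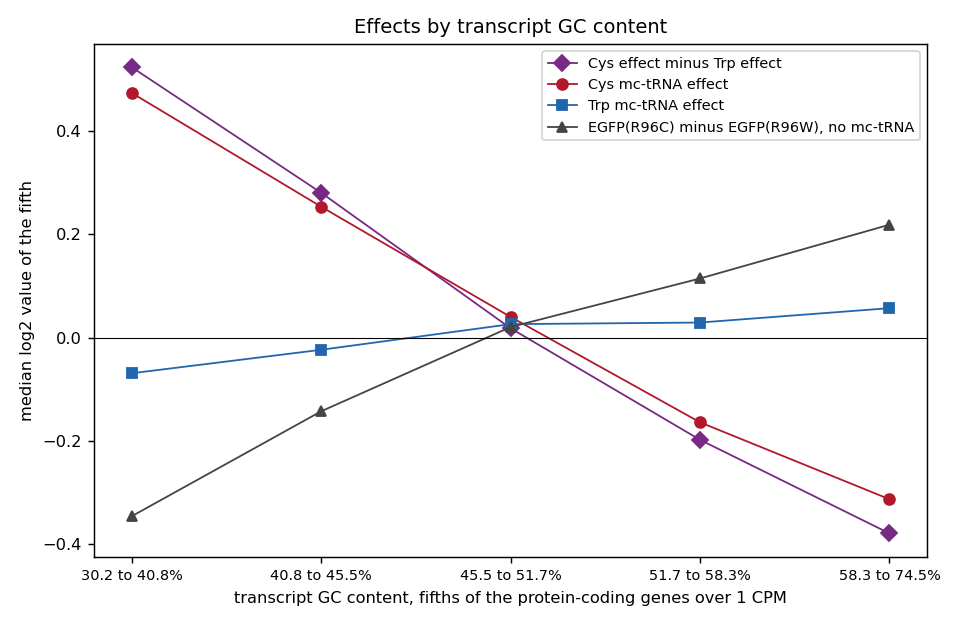
Median log2 values (vertical axis) in 5 bins of equal size of 11650 protein-coding genes by transcript GC content (horizontal axis) for the difference of effects, each effect and the difference between the 2 controls. The difference and the Cys effect fall from left to right, the control difference climbs, and the Trp effect stays between -0.07 and 0.06.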

How the data were processed

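RNA was measured by strand-specific polyA sequencing of 30 libraries in 10 groups of 3, of which 12 enter the comparison. The authors deposited raw gene counts, 1 table per library. STAR, SAMtools, featureCounts and the build hg38 are named in the submitters' processing notes, while their versions and the strand setting are not given in these sources. Per the file headers, reads were paired and uniquely mapped. ERCC features (92) were left out, which leaves 58278 genes.

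Genes were kept by edgeR's filter on low counts, which left 22321. A single edgeR model (version 4.0.16, R 4.3.3, TMM factors, quasi-likelihood test, no prior fold threshold) was fitted over all 30 libraries, with 20 residual degrees of freedom and a biological coefficient of variation of 8.24%. The difference was tested as a contrast of 4 groups, with p-values adjusted over all genes and a threshold of 0.05. The computation was tested on simulated data. Alternatives were RLE size factors, library totals, other filters on low counts, 12 or 24 libraries in the fit, a replicate block, DESeq2 1.42.0, leaving out each library, and GC offsets, added after seeing the data. The 12 libraries held 39961504 to 55206030 counts. The detection limit for a gene listed at 0 was set at 3 counts in a library and covers counting error only.

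The members and gene lists were chosen with earlier results of these data known. Genes outside the lists were named by rank: the 10 largest differences per direction at 5 CPM or more, then the genes with the largest smaller effect among those called in both in the same direction (8 per direction) or in opposite directions (6), and the largest Trp effects among those called with Trp and in the difference only (6). From each list up to 4 called members per direction were taken by adjusted p, with 23 genes always reported. Not all of these are printed, and other members described were chosen after their values were seen. Promoter sequences are from RefSeq, GRCh38.p14.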

Additional observations from a re-analysis of the deposited data

Results flagged for a closer look

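Each mc-tRNA effect was called for the genes given here, the 2 effects ran in opposite directions, and the test of the difference itself (edgeR's quasi-likelihood test, Benjamini-Hochberg adjustment) was called. With Cys up and Trp down, the differences were 6.08 for ANKRD1, 4.58 for SCG3, 3.81 for HMOX1, 2.71 for SCN9A, 1.68 for PHGDH and 1.20 for TSEN15. The EGFP(R96C) and EGFP(R96W) controls differed by -3.03 ± 0.30 for ANKRD1, 0.08 ± 0.22 for SCG3 and -0.67 ± 0.15 for SCN9A, values that enter the differences. For HMOX1 and PHGDH the controls differed by -0.32 ± 0.16 and -0.03 ± 0.09.

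With Cys down and Trp up, the differences were -1.89 for KMT2D, -1.76 for TBX2, -1.65 for SKI, -1.35 for RPL36A, -1.005 for PHLDA3 and -0.94 for EIF4G1. The mitotic genes BUB1B, AURKA and BIRC5 had differences of -0.82, -0.77 and -0.75. The remaining differences of this kind were -0.72 for ALDH18A1, -0.71 for DNAJC5, -0.69 for RELA and -0.46 for HSPBP1. The opposite directions did not hold for 5 of these genes under GC offsets or library totals. With GC offsets the Cys effects of RELA, HSPBP1 and PHLDA3 were 0.00, 0.11 and -0.06 and were not called. The Trp effects of KMT2D and HSPBP1 were 0.33 and 0.13 with GC offsets and 0.23 and 0.11 with library totals, and that of BUB1B was 0.07 with library totals, none of them called. In all, 1296 genes had opposite effects.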

How the results depend on the processing

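The number of genes called in the difference stayed within 1.5 times of 9756 under every alternative run, between 8681 with only the 12 libraries in the fit and 11451 with library totals. It was 9860 with DESeq2, 9411 with no filter on low counts and 8970 to 9731 when each library was left out in turn. The split by direction moved with library totals: 2500 higher and 8951 lower in the difference, 3143 and 12401 for the Cys effect, and 2718 and 10569 for the Cys mc-tRNA group minus the Trp mc-tRNA group. Same-numbered libraries did not deviate together (18 pairs, correlations of -0.219 to 0.131), so no common deviation by replicate number was seen. With the replicate block 10142 genes were called. In each group replicates 1 and 2 were the closest pair by a chi-square on counts.

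Of 161 genes named above and called in the difference, all but 19 kept their direction and call under all 21 alternatives. With library totals, 4 called differences changed sign and became -0.118 for CALR, -0.141 for CCT7, -0.133 for HSF2 and -0.044 for PDIA6. Differences not called in the main fit also changed sign. They became -0.293 for CDKN1A, -0.080 for FOXJ1, -0.125 for HSPA2, -0.309 for IFIT1, -0.084 for PLPP5, -0.302 for POU2F2, -0.178 for SPATA2 and -0.273 for TAF7L. With GC offsets, which were chosen after seeing the data, 3 called differences changed sign and became -0.020 for ERO1B, 0.024 for HSF1 and -0.122 for HSF2. Those not called in the main fit became 0.039 for FICD, 0.117 for GFRA3, 0.034 for HYOU1, -0.204 for IFIT1, 0.211 for SYVN1, -0.152 for TAF7L and 0.004 for VCP. When a library was left out, sign changes were seen only in genes with no difference called: FICD (-0.144 to 0.073), HSPA14 (-0.118 to 0.032), IFIT1 (-0.098 to 0.211), NQO1 (-0.219 to 0.027), POU2F2 (-0.057 to 0.233), SYVN1 (-0.099 to 0.036) and TAF7L (-0.068 to 0.349). SYT4 lost its call without EGFP(R96W) replicate 3, MANF without Trp mc-tRNA replicate 1, HSF2 without Cys mc-tRNA replicate 2, CALR and CCT7 without any of several libraries, and TMEM160 with only the 12 libraries in the fit. Differences not called above but called with library totals included -0.590 for HYOU1, -0.442 for SYVN1, -0.447 for FICD, -0.462 for HSPA14 and -0.523 for VCP. HYOU1 was also called without Trp mc-tRNA replicate 3, at -0.314. The cause was not tested for any of these.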

Other observations

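Counts for 3 lists were not given above. Of 10 eIF2alpha kinases, phosphatase subunits and partners, 6 were higher in the difference and 3 lower, and of 31 translation factors 15 were higher and 8 lower. Of 16 BCL2 family genes, which set the threshold for apoptosis, 3 were higher and 3 lower, where 23.7% and 20% of all genes were. With library totals these counts were 4 and 4, 8 and 14, and 2 and 9. Of the 9 HEK293 markers 6 were higher and 2 lower in the difference, against 2 and 2 with library totals.

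The amounts of the 2 mc-tRNAs, the charging of their tRNAs and protein levels were not analysed here, so the differences cannot be set against the dose of each mc-tRNA. The p-values measure the spread between 3 libraries a group. Small differences can change sign with library totals or GC offsets. Overlapping and antisense genes cannot be separated where the strand setting of the counting is not given, and the split between HSPA1A and HSPA1B and between HSPA6 and HSPA7 is uncertain.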
